A study of Mus musculus with 108 samples.

Results

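Active enhancers that turned quiescent by 12 months of age under both diets were 84661 autosomal bins of 200 bp, 16.9 Mb in all, out of 2045585 bins (409 Mb) that carried an active enhancer state in the young liver. They were selected on the chromatin state labels alone: a bin had to be in state 3 or 4 in the 3 month group and in state 8 in both 12 month groups, and adjacent bins were merged into 9746 stretches. The samples were formalin-fixed, paraffin-embedded livers of inbred C57BL/6 female mice. SD 3m were 8 mice of 3 months on standard diet, SD 12m were 8 mice of 12 months on standard diet, and CR 12m were 9 mice of 12 months kept from 3 months of age on a diet with 30% fewer calories. Immunoprecipitation of 4 histone marks (trimethylated H3K4, trimethylated H3K27, acetylated H3K27 and monomethylated H3K4) gave 30, 29 and 29 libraries in these groups, and a further 20 libraries of 6 month mice on standard diet (SD 6m) were not analysed here. The study merged the libraries of a group before it assigned states, so each group is 1 segmentation of whole liver, without a spread between mice. Hence no difference below could be tested, all values describe these 3 segmentations, and a change of state cannot be told apart from a change in the share of cells that carry the mark, in read depth or in enrichment between the merged libraries.

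Histone H3 acetylated at lysine 27 and monomethylated at lysine 4 mark enhancers in use, whereas monomethylation without acetylation marks enhancers that are primed or poised. Trimethylation of lysine 4 marks active promoters and trimethylation of lysine 27 marks chromatin silenced by Polycomb. In hepatocytes, which make up most of the liver mass, active enhancers surround genes of plasma proteins and metabolism and carry binding sites of hepatocyte factors such as FOXA, HNF4A and CEBP proteins. The 8 states were named by the study from their marks. State 3 (active enhancer 1) combines H3K27ac with H3K4me1, and state 4 (active enhancer 2) has weaker H3K27ac with little H3K4me1. State 8 (quiescent) has none of the 4 marks at an appreciable level.

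The bins at the middle of the longest lost stretches are shown first as examples, chosen by position alone. They are given on the plus strand of GRCm38.p6 (mm10, from RefSeq), in lower case, with matches to any of 12 short motifs in capitals. Of the 5 longest stretches, 4 are shown, since the middle of the other one lay in an exon. Each of the 4 bins was in state 4 in SD 3m and quiescent in both 12 month groups. A middle bin need not resemble its stretch, as the first has 58.5% GC against 37.8% over its whole stretch.
Intergenic bin upstream of Egfr (chr11:16663001-16663200, 58.5% GC): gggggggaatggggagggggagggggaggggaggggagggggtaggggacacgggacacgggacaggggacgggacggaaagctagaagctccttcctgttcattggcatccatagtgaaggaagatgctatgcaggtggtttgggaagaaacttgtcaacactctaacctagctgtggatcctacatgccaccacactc
Intron of Dhx36 (chr3:62488201-62488400, 28.5% GC): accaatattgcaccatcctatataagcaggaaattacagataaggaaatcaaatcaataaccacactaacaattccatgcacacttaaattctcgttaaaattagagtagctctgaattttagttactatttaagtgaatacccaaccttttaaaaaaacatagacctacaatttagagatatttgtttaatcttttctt
Intron of Ube3c (chr5:29619401-29619600, 41.0% GC): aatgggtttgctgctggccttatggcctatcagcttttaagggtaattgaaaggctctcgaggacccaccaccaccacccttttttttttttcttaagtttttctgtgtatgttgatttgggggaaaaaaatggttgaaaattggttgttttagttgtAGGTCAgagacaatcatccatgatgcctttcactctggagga
Intron of Pign (chr1:105640001-105640200, 34.5% GC): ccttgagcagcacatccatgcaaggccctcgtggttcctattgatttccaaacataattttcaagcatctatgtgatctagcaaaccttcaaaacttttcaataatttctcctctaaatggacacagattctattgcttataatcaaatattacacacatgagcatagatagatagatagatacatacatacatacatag
Intergenic bin upstream of Alb, kept (chr5:90449401-90449600, 36.0% GC): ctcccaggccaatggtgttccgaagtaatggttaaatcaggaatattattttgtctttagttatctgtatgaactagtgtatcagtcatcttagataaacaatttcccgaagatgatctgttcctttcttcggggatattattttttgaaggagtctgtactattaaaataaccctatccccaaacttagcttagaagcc
The last of these was in state 3 in all 3 groups and is the middle of the 23.2 kb kept stretch that spans the start of Alb, the gene of serum albumin. Among the lost bins, the one in Ube3c held a single match, the hexamer AGGTCA recognised by nuclear receptors, at bases 159 to 164. None of the motifs was found in the other 3 lost bins or in the kept bin, which says only that these letters were not in the window. Over all lost bins AGGTCA was in 10.2%, against 11.5% of the bins in state 4 in all groups and 11.1% of all autosomal bins.

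Nearly all of the loss came out of the weaker enhancer state. Of the lost bins, 83817 (99.0%) were in state 4 in SD 3m and 844 (0.997%) were in state 3, although state 3 held 59.6% of the active enhancer bins and state 4 held 40.4%. Put per state, 10.1% of the 826207 state 4 bins were lost under both diets and 0.0692% of the 1219378 state 3 bins. The members are therefore described below as weakly acetylated state 4 chromatin rather than as enhancers with the full pair of marks. These values restate what the rule used and carry no test. Other states of SD 3m also turned to state 8 under both diets, with 10.5% of the bins of state 5, 29.2% of state 6 and 19.4% of state 7. For states 1 and 2 the shares were 1.60% and 0.0385%. Over all active enhancer bins, 6.84% turned to state 8 at 12 months on standard diet, 6.66% on the restricted diet and 4.14% on both. The 2 comparisons share the SD 3m segmentation.

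**Figure D1:**
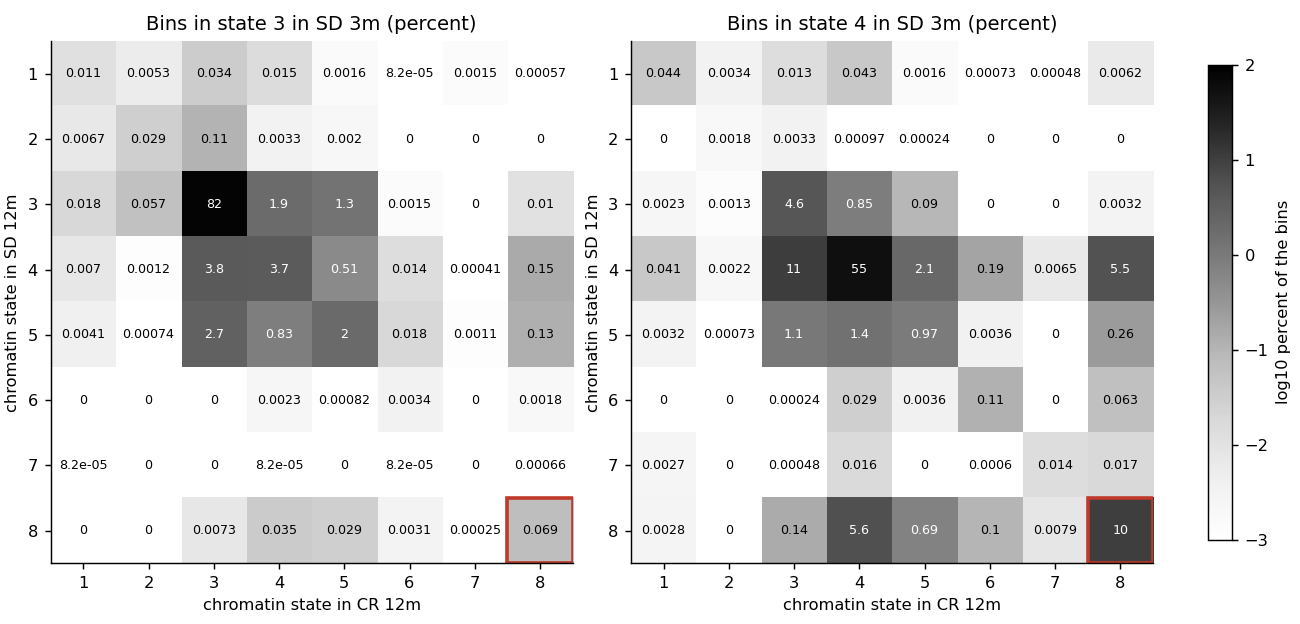
Destinations of the SD 3m active enhancer bins. Each cell gives the percent of bins in state 3 (left) or state 4 (right) in SD 3m that were in the given state in SD 12m (rows) and CR 12m (columns), shaded on a log10 scale, and the red outline marks the lost bins, 0.0692% of state 3 and 10.1% of state 4.

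The other state 4 bins mostly stayed active. In all 3 groups 452163 bins (54.7%) were in state 4, and 38030 (4.60%) moved up to state 3 under both diets. A further 46511 state 4 bins (5.63%) were in state 8 in SD 12m and in state 4 in CR 12m, and 45002 (5.45%) showed the reverse, so bins lost under 1 diet alone were of similar number for the 2 diets. Bins just outside the rule were few. State 8 in 1 group with the poised enhancer state 5 in the other was found for 9788 bins, 0.478% of the active enhancer bins, and state 8 with state 6 or 7 for 1632 bins, or 0.0798%. On the X chromosome, which the rule left out, 289 of 6289 active enhancer bins (4.60%) would have met it.

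The loss went against the drift of the whole genome. State 8 covered 66.0% of the autosomal bins at 3 months and, at 12 months, 51.8% on standard and 62.1% on restricted diet, so the quiescent state shrank with age under either diet. State 4 covered 6.71%, 9.82% and 8.56%, and more bins moved from state 8 into state 3 or 4 under both diets (126550) than moved the other way (84661). The gains came out of 8122212 state 8 bins of SD 3m and the losses out of 2045585 active enhancer bins. Per bin, loss was thus the more frequent move. The gained bins had a median distance to the nearest transcription start site (TSS) of 17.5 kb and a GC content of 47.8%, against 36.1 kb and 39.5% for the lost bins. From the lost stretches, the nearest gained bin was at a median of 75.4 kb, and within 10 kb for 14.6% of them. This distance was not measured for kept stretches, so it is not known whether lost stretches lay unusually far from gains.

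Lost stretches were short, with a mean of 1737 bp, a median of 1200 bp and quartiles of 600 and 2200 bp. Single bins made up 1089 stretches, and 5538 stretches of at least 1 kb held 88.4% of the lost bins. At the other end, 78 stretches of 10 kb or more held 6.01% of them, and the longest measured 34.2 kb. The stretches that stayed in state 4 in all groups had a median of 1600 bp and a mean of 2977 bp.

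A parent is here an unbroken run of state 3 and 4 bins in SD 3m, and 77030 were found. Of these, 3691 (4.79%) lost every bin and held 35.9% of the lost bins, 4992 (6.48%) lost some of their bins, and 68347 (88.7%) lost none. Parents lost entirely had a median length of 1000 bp, and 95.5% of them had no state 3 bin, whereas 11.8% of the parents without a loss lacked state 3. Of the stretches, 37.9% were whole parents, 52.0% took away 1 edge of a parent and 10.1% had on either side a bin of the same parent that was not itself lost under both diets. Such neighbours were not always active at 12 months: of the bins flanking the stretches, 34.4% were in state 4 at 3 months, and 17.7% (SD 12m) and 14.3% (CR 12m) later.

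Among the 14320 parents made of state 4 alone, 25.8% of the bins were lost, against 1.50% of the bins of the 62710 parents with state 3. Within the first kind the share fell with length, from 48.3% for parents of 400 bp to 30.0% for those of 2 to 3.8 kb and 19.1% for those of 10 kb or more. Parents of a single bin stood apart with 23.7%. The position in the parent showed the same gradient. Of the state 4 bins at an edge 28.0% were lost, against 12.4% of those 1 to 1.8 kb inside and 2.15% of those at least 10 kb inside. Lost bins lay at a median of 13.2 kb from the nearest state 3 bin of SD 3m and 3.18% of them within 1 kb of one, whereas bins kept in state 4 lay at a median of 4.0 kb and 15.5% of them within 1 kb.

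**Figure D2:**
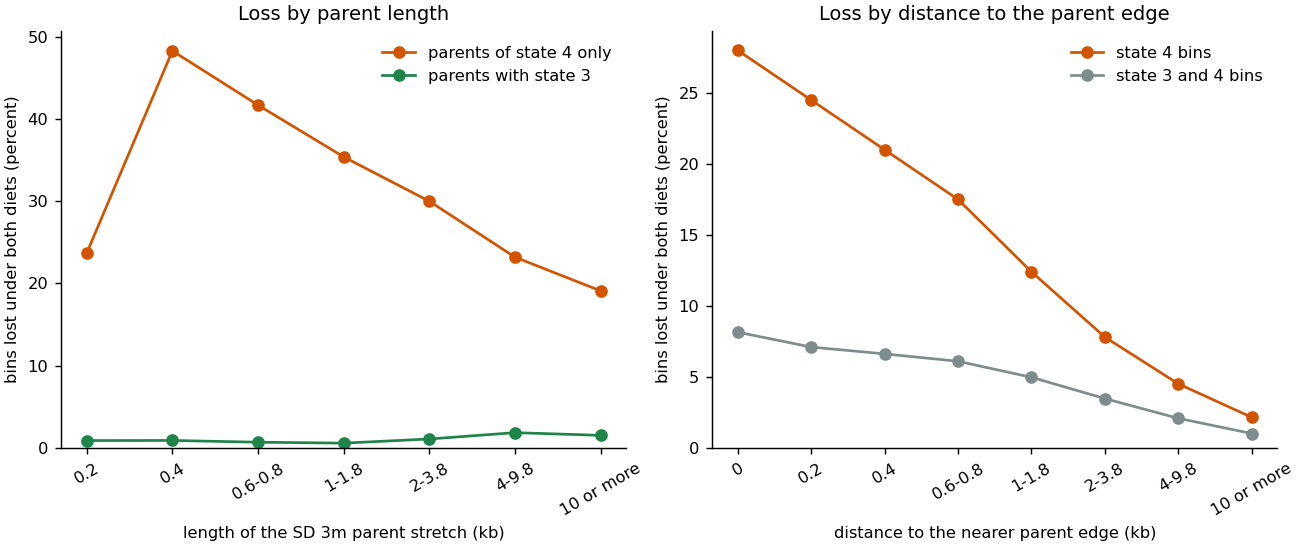
Percent of SD 3m active enhancer bins lost under both diets, by length of the parent stretch (left, parents of state 4 only in orange and parents with state 3 in green) and by distance to the nearer parent edge (right, state 4 bins in orange and all active bins in grey). Parents of state 4 only lost 48.3% of their bins at 400 bp and 19.1% at 10 kb or more, and state 4 bins at an edge lost 28.0%.

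The surroundings of the lost stretches were poor in active chromatin before the loss. At 10 to 20 kb from their centres, 31.1% of the bins were in state 3 or 4 in SD 3m and 47.7% were quiescent, whereas around stretches kept in state 4 the shares were 56.4% and 22.4%. State 3 was at 9.67% around lost and 28.4% around kept stretches. By 12 months the 2 kinds of neighbourhood had moved in opposite directions. Around lost stretches the share in state 3 or 4 went from 31.1% to 28.5% (SD 12m) and 28.2% (CR 12m), while quiescent bins went from 47.7% to 59.4% and 60.7%. Around kept stretches state 3 or 4 went from 56.4% to 68.5% and 70.9%, and quiescent bins stayed near 22.4%, with 22.9% and 21.4%. Bins near a lost bin are partly members themselves, and those at 10 to 20 kb can be. Both kinds of stretch were chosen by their 12 month states, and neighbouring bins often share a state. The opposite movement can therefore follow in part from the selection. Polycomb state 6 shrank around both kinds, from 7.04% to 2.98% and 2.89% around lost and from 5.55% to 1.79% and 2.01% around kept stretches.

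**Figure D3:**
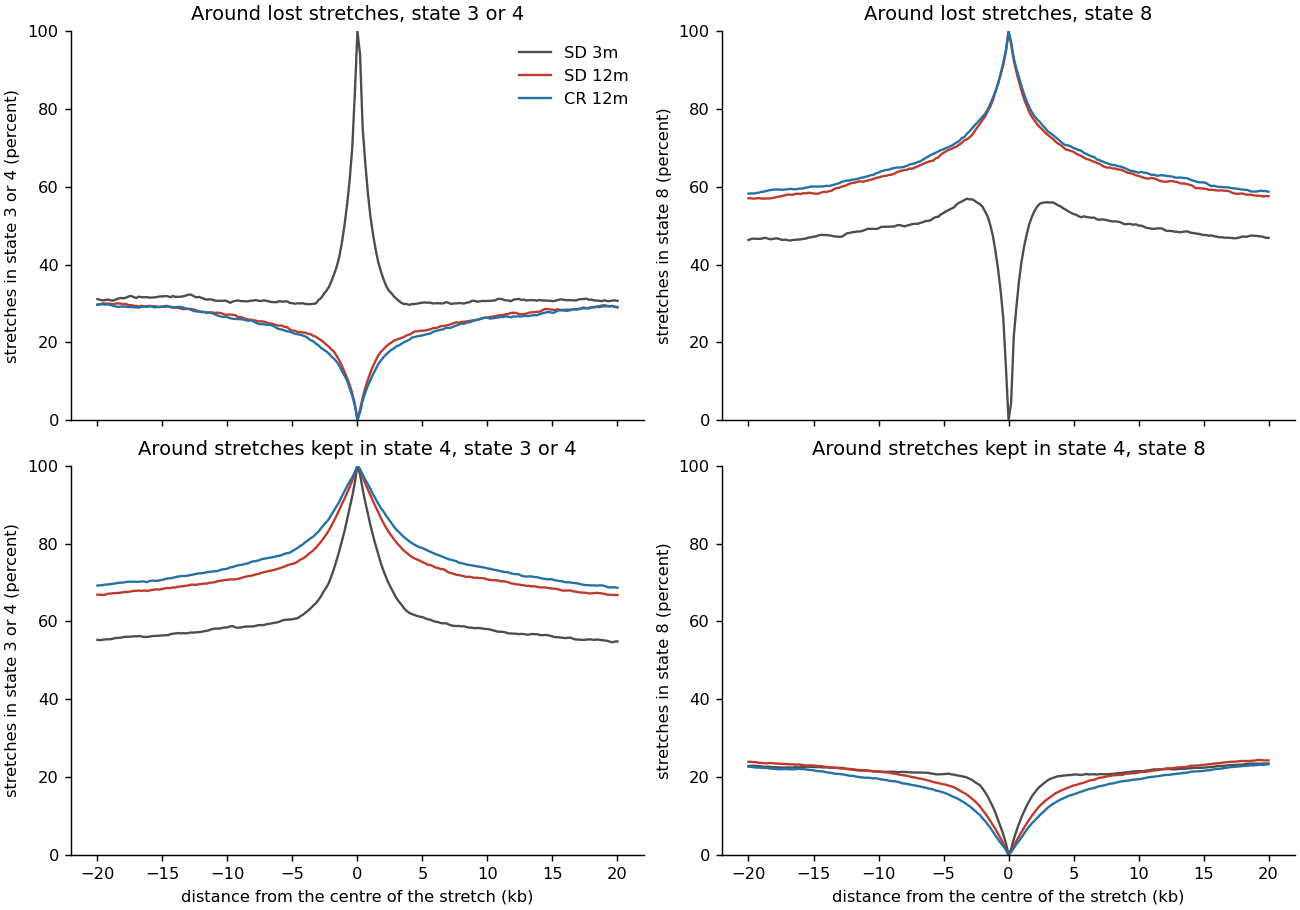
Percent of stretches in state 3 or 4 (left) and in state 8 (right) by distance in kb from the stretch centre, for the 9746 lost stretches (top) and the 30376 stretches in state 4 in all groups (bottom), in SD 3m (grey), SD 12m (red) and CR 12m (blue). The centre values are fixed by the selection. At 10 to 20 kb from lost stretches state 8 averaged 47.7%, 59.4% and 60.7% in the 3 groups.

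Most of the lost bins lay inside genes. Introns held 59.3%, exons 5.34% and intergenic sequence 35.3%, close to the 53.8%, 7.14% and 39.1% of bins kept in state 4 and far from the 31.8%, 1.86% and 66.3% of bins quiescent in all groups. Only 2.04% lay within 2 kb of a TSS. Of the 54706 lost bins inside genes, in 2671 host genes, 72.9% had a host whose own start was in promoter state 1 or 2 in SD 3m and 6.51% a host with a quiescent start. These shares were near those of all state 4 bins of SD 3m inside genes (72.8% and 4.09%) and of bins kept in state 4 (75.9% and 3.05%), while for bins quiescent in all groups they were 25.9% and 47.8%. Host genes were cut into first, middle and last parts of equal length, which held 21.6%, 36.1% and 42.2% of the lost bins. Bins kept in state 4 were placed alike (18.9%, 35.2% and 45.9%), whereas bins kept in state 3 favoured the first part, with 43.1%.

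Loss was more frequent far from genes' starts. The share of state 4 bins lost was 4.89% at 2 to 5 kb from the nearest TSS, 11.0% at 20 to 50 kb and 20.1% at 200 to 500 kb. Of the lost bins 38.0% lay over 50 kb away, against 20.5% of the bins kept in state 4, 31.6% of those lost in SD 12m alone, 33.2% of those lost in CR 12m alone and 65.8% of the bins quiescent in all groups. The lost bins were above the bins kept in state 4 on 19 of 19 autosomes, with 30.2% to 50.6% against 13.4% to 34.5%.

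The sequence of the lost bins was rich in A and T. Their GC content was 39.5%, below the 43.4% of bins kept in state 4 and also below the 41.1% of bins quiescent in all groups, and both orders held on 19 of 19 autosomes. Bins lost in CR 12m alone had 40.7%, also below the quiescent bins, and those lost in SD 12m alone had 42.0%. Of the state 4 bins under 35% GC 18.8% were lost, against 9.65% of those from 40% to under 45% and 3.52% of those at 55% or more. This gradient was found in parents of state 4 only, from 39.1% lost under 35% GC to 11.5% at 55% or more, and in parents with state 3, from 8.57% to 1.53%. It was also found within 10 kb of a TSS (12.7% to 1.77%) and over 50 kb away (23.7% to 8.17%). Base composition affects recovery in library preparation, and its part in the change of state was not tested. Soft-masked repeats covered 27.2% of the lost sequence, 30.9% of the sequence kept in state 4 and 39.4% of that quiescent in all groups. Per kb, lost bins held 7.44 CpG dinucleotides and bins kept in state 4 held 9.81.

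**Figure D4:**
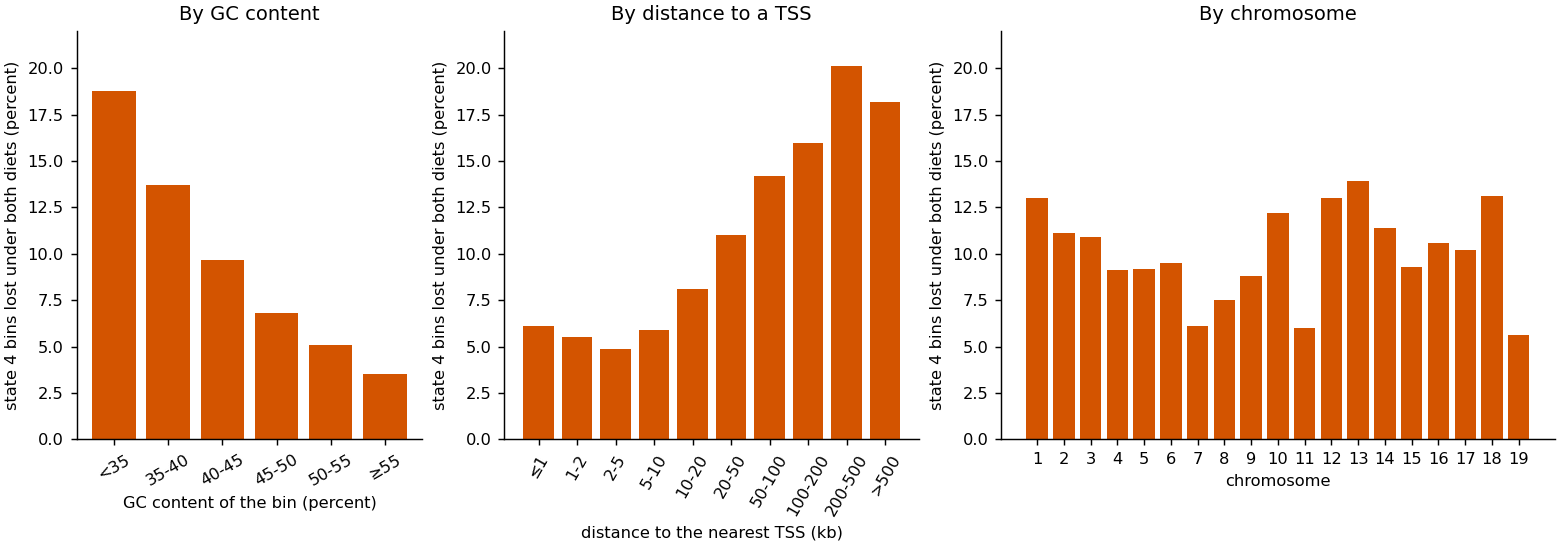
Percent of SD 3m state 4 bins lost under both diets by GC content of the bin (left), by distance to the nearest TSS in kb (middle) and by autosome (right). Bars start at 0. The share fell from 18.8% to 3.52% with GC content, and ranged from 5.62% on chromosome 19 to 13.9% on chromosome 13.

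FOX, CEBP, STAT and AP-1 motifs were more frequent in lost bins than in bins kept in state 4, and motifs rich in G and C were rarer. A motif was counted as present where its letters were found on either strand within the bin. The FOX motif TGTTTAC, bound by FOXA pioneer factors, was in 3.54% of the lost bins, 2.81% of the bins kept in state 4, 2.88% of the bins quiescent in all groups and 2.98% of all autosomal bins. It was more frequent in lost than in kept bins on 18 of 19 autosomes. Among bins of 40% to under 45% GC the shares were 3.46% and 2.98%, but from 45% to under 50% GC they were 2.29% and 2.22%. The CEBP motif TTNNGCAA was in 9.26% of lost and 7.72% of kept bins, with 9.28% over all bins, and the STAT motif TTCNNNGAA in 7.07% and 5.92%, with 7.36% over all bins, so neither exceeded the genome. The AP-1 motif TGANTCA was in 6.18% of lost and 5.64% of kept bins, with 5.96% over all bins. It was more frequent in lost than in kept bins on 16 of 19 autosomes. Its shares were 6.65% and 6.13% from 40% to under 45% GC, and 5.96% and 5.19% from 50% to under 55% GC. Motifs with G and C were rarer in lost than in kept bins, such as the SP/KLF motif GGGCGG (1.29% and 2.36%, 2.01% over all bins) and the E-box CACGTG (1.86% and 2.46%, 1.99% over all bins), each on 19 of 19 autosomes. Both orders turned among bins of 50% to under 55% GC, with 4.72% of lost and 4.49% of kept bins for SP/KLF and 3.72% and 3.63% for the E-box. In that GC range the STAT motif was also no more frequent in lost (4.24%) than in kept bins (4.40%), nor the FOX motif (1.75% and 1.76%), and CEBP was at 5.53% and 5.24%. For the HNF4 motif CAAAGTCCA the shares were 0.217% and 0.238%, with 0.257% over all bins, and the order between lost and kept bins changed from autosome to autosome, lower on 11 and higher on 8.

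The loss was spread over every autosome. The share of active enhancer bins lost was 6.46% on chromosome 13, 6.15% on chromosome 1 and 1.95% on chromosome 19, with chromosomes 11 (2.23%) and 7 (2.30%) next to the lowest. In windows of 1 Mb, 1622 of 2473 held a lost bin, and 244 windows held 50% of them, compared with 394 windows for 50% of the active enhancer bins. The window with the most was chromosome 11 from 16000001 to 17000000, around Egfr and Sec61g, where 579 of 1444 active enhancer bins (40.1%) were lost.

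The longest lost stretch lay in that window (chr11:16646001-16680200, 34.2 kb), in intergenic sequence 89.1 kb from the start of Egfr, the receptor of epidermal growth factor that drives hepatocyte growth. It took 80.3% of a 42.6 kb parent without a gene inside. Second was a stretch of 22.6 kb inside Dhx36 (chr3:62477001-62499600), which encodes a helicase that unwinds G-quadruplexes and was covered over 1689 bp of exons. A 20.2 kb parent in introns and exons of Ube3c (chr5:29609401-29629600), a ubiquitin ligase gene, was lost from end to end. The other 20.2 kb stretch (chr13:49556601-49576800) lay in introns of Cenpp, a centromere protein gene, and covered 10965 bp of Aspn, which encodes the extracellular matrix protein asporin and lies on the other strand.

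The remaining 6 of the 10 longest measured 16.6 to 19.8 kb. They lay in Pign (19.8 kb), an enzyme gene of GPI anchor synthesis, 378 kb upstream of the start of Pik3r1 (18.6 kb), at the 3′ end of Cep170 with Mir350 as the nearest start (18 kb), across the non-coding gene Gm38773 (18 kb), in Rab3gap1 (17.8 kb) and at the 3′ end of Snx13 (16.6 kb). All bins of all 10 stretches were in state 4 in SD 3m, and 7 of the 10 overlapped a protein-coding gene. Their GC content ranged from 34.8% to 41.7%.

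**Figure D5:**
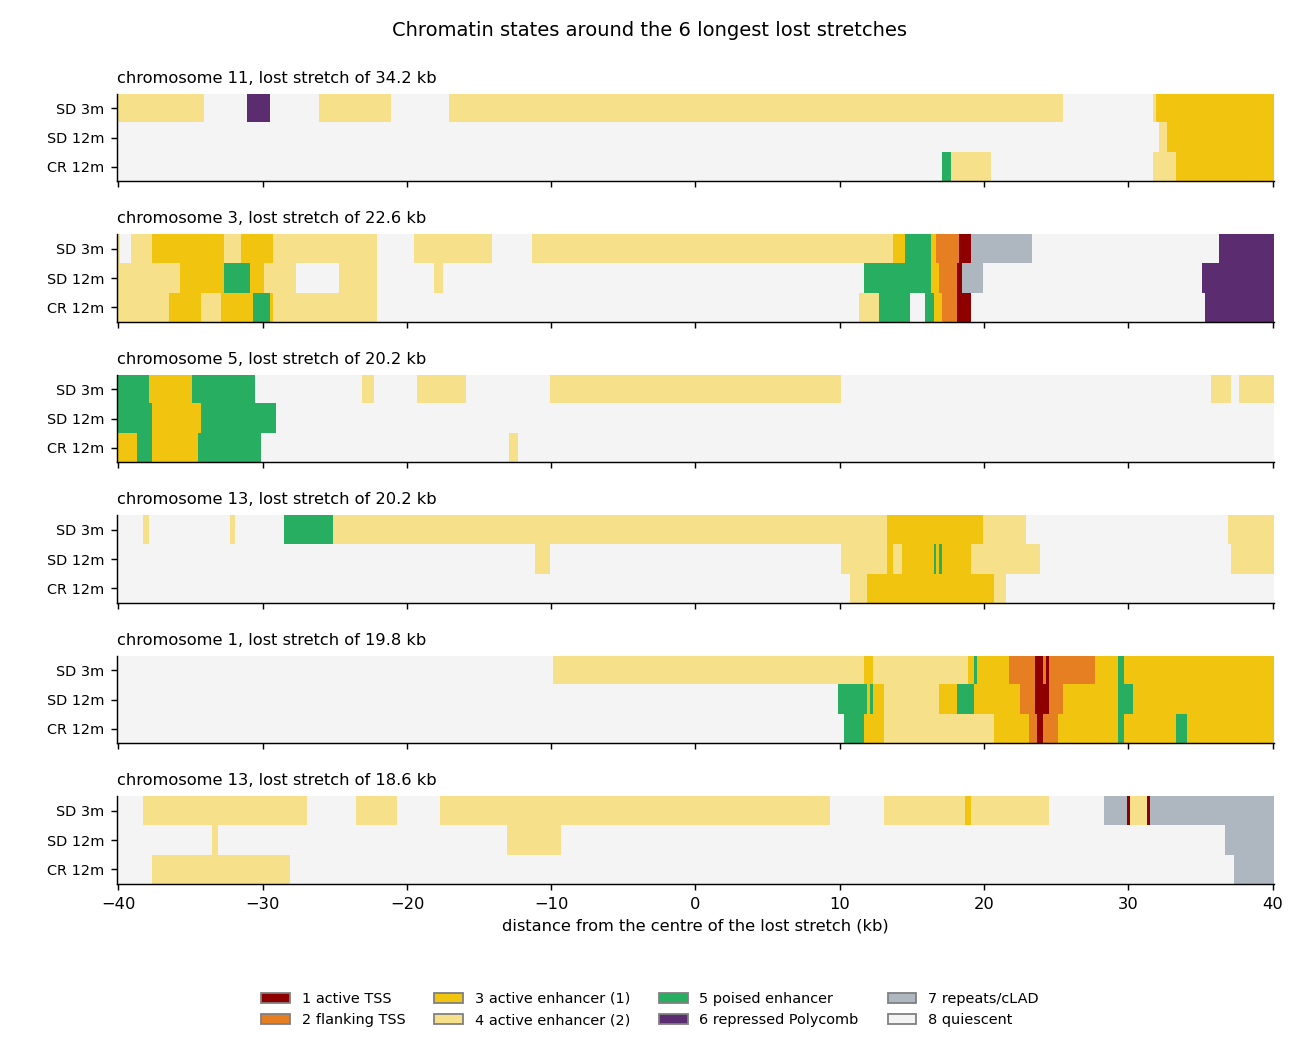
Chromatin states (colours) of 200 bp bins within 40 kb of the centres of the 6 longest lost stretches, by distance in kb, in SD 3m, SD 12m and CR 12m. Pale yellow state 4 of SD 3m became state 8 (near white) in both 12 month groups, while state 3 runs (dark yellow) beside the first 5 stretches were still present at 12 months.

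Each lost bin was assigned to the nearest RefSeq TSS, which does not show that the bin acts on that gene. The bins fell to 4506 genes, 26.5% of the 16975 genes that were nearest to any active enhancer bin, and 560 genes held 50% of them. In 301 genes every active enhancer bin was lost, but most of these had few bins, and 170 of the 9949 genes with at least 50 active enhancer bins lost over 50% of them.

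The 15 genes with the most lost bins had 184 to 319 of them. Pik3r1, the regulatory subunit of phosphatidylinositol 3-kinase and a hub of insulin signalling, led with 319 of 2289 active enhancer bins (13.9%). They lay 304 to 441 kb from its start, upstream of the gene, while 1822 bins were kept. Egfr followed with 286 of 940 bins (30.4%), which were 83.9% of its state 4 bins, and 613 bins were kept. Its neighbour Sec61g, a subunit of the channel that moves proteins into the endoplasmic reticulum, lost 231 of 299 bins (77.3%) and 89.7% of its state 4 bins. Ahr, the receptor for dioxins and other aromatic ligands, lost 211 of 661 bins (31.9%). Both Egfr and Ahr kept a TSS in state 1 in SD 3m and SD 12m, and in CR 12m that of Egfr was in state 3.

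The other genes among the 15 with the most lost bins had various roles. Rab3gap1, which regulates the Rab3 and Rab18 GTPases, lost 217 of 312 bins (69.6%), and its TSS went from state 1 to state 4 in both 12 month groups. Edem3, which trims mannose from misfolded glycoproteins, lost 184 of 288 bins (63.9%) with its TSS in state 1 throughout. Mpdz, a scaffold of tight junctions, lost 270 of 1104 bins (24.5%), and its TSS went from state 5 to state 8 in both groups. For Kcnt2, a potassium channel gene, 220 of 944 bins (23.3%) were lost and a further 150 in CR 12m alone. Zfp407, a zinc finger gene, lost 252 of 528 bins (47.7%) and Ttc39c 184 of 509 (36.1%). Pabpc2, whose start was quiescent in all groups, lost 287 of 605 bins (47.4%), Gm13498 lost 278 of 1049 (26.5%) and Gm20125 219 of 868 (25.2%). The microRNA genes Mir350 and Mir21c lost 198 of 297 bins (66.7%) and 184 of 640 (28.8%).

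By share, 4 of the genes with at least 50 active enhancer bins lost all of them, namely Serpinb1b (54 bins), Mir719 (66 bins), A830082N09Rik (62 bins) and F630111L10Rik (51 bins). Gpr75, an orphan receptor gene, lost 68 of 71 bins (95.8%), Aspn 112 of 117 (95.7%), Gm19951 49 of 55 (89.1%), Ttc1 58 of 67 (86.6%), 6530409C15Rik 73 of 85 (85.9%) and Enah, a regulator of actin filament ends, 54 of 64 (84.4%). The start of Aspn was in state 4 in SD 3m and in state 8 in both 12 month groups, whereas that of Ttc1 was in state 1 in all 3. Genes that lost their active enhancer bins were thus found both with a silent and with a marked promoter.

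The starts of the most affected genes were more often quiescent than those of other genes. Genes whose start bin was itself lost were left out (13 that would have joined the set described next). Starts were scored in the same segmentations as the losses, and neighbouring bins often share a state. The contrast below can therefore follow in part from the selection. Of the 161 genes with at least 50 active enhancer bins that lost 50% or more of them, 55.9% had a start in promoter state 1 or 2 at 3 months, and 44.1% (SD 12m) and 39.1% (CR 12m) later. The share with a quiescent start was 21.7%, 26.7% and 32.3%. Among the 6962 genes with as many bins and no loss, the share with a start in state 1 or 2 went from 63.6% to 55.5% and 48.9%, and the share with a quiescent start from 3.84% to 3.38% and 2.92%. Promoter states shrank in both sets, but quiescent starts increased in the first and not in the second.

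Genes of plasma proteins, lipid synthesis, stress and inflammation and nuclear receptors lost few bins. No bin of Alb (235 active enhancer bins, all kept) or of Apoa1, the main protein of high density lipoprotein (512 bins, 497 kept in all groups), was lost. In the lists of functional groups, the share of active enhancer bins lost was 0.687% for secreted plasma proteins (2 of 26 genes with a loss). Apob, the main protein of low density lipoprotein, lost 14 of 480 bins and gained 40. Over all genes with an active bin, 26.5% had a loss. The share of bins lost was 0.383% for fatty acid and sterol synthesis (3 of 31 genes). For inflammatory and interferon genes it was 0.433% (2 of 24), for immediate-early and stress genes 0.345% (2 of 22) and for nuclear receptors 0.796% (3 of 15). All of these lie below the 4.14% of all active enhancer bins. Their active bins were also less often in state 4, 23.5% to 36.3% against 40.4% over all active bins, but of the state 4 bins alone 1.05% to 3.39% were lost, below the 10.1% of all state 4 bins.

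Hepatocyte transcription factors lost 1.81% of their active bins (3 of 15 genes) and 8.67% of their state 4 bins, near the 10.1% of all state 4 bins. Nr5a2, which controls bile acid genes, lost 34 of 929 bins and gained 94. The pioneer factor gene Foxa1 lost 25 of 412 bins and gained 43. Nfia lost all of its 17 bins, and its start was in Polycomb state 6 in SD 3m and quiescent at 12 months. Cytochrome P450 genes lost 2.21% (6 of 25 genes), with Cyp7b1, an oxysterol hydroxylase of bile acid synthesis, at 43 of 383 bins. Gluconeogenesis, amino acid and urea cycle genes lost 1.52% (2 of 19 genes), 46 of 56 bins at Glul, the glutamine synthetase of pericentral hepatocytes. The growth hormone and insulin axis lost 1.64% (3 of 21 genes), mostly at Ghr, the growth hormone receptor, with 98 of 873 bins, while Igf1 lost 3 of 1032. Fatty acid oxidation and ketogenesis genes lost 3.19% (5 of 23 genes) and 8.87% of their state 4 bins, with 88 of the 117 lost bins at Acot12, a cytosolic acetyl-CoA hydrolase.

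Other lists reached or passed the share of all active bins through a few genes. Over all genes with an active bin, 26.5% had a loss, and of all state 4 bins 10.1% were lost. Circadian clock genes lost 4.54% of the active bins and 15% of the state 4 bins in 7 of 19 genes (36.8%). Nr1d2, a repressor of the clock loop, lost 63 of 112 bins, out of 102 lost bins in the list, and Clock lost 23 of 104. The lost bins of Nr1d2 lay at a median of 275 kb from its start, which went from state 1 to state 4 in both 12 month groups. Cell cycle genes lost 6.64% in 6 of 21 genes (28.6%, near the share of all genes). Of their active bins 46.8% were in state 4, against 40.4% over all active bins, and 14.2% of these state 4 bins were lost. Mcm6, a subunit of the replicative helicase, lost 88 of 150 bins, Ccne1 26 of 39 and Ccna2 19 of 34. Genes of testis or neurons lost 33.4% (157 of 470 bins) and 48.1% of the state 4 bins in 5 of 7 genes (71.4%). Dazl, a germ cell RNA-binding protein gene, led with 65 of 236 bins. The bins of Dazl, Snap25 (40 of 90) and Sycp3 (36 of 57) lay near starts that were quiescent or in Polycomb state 6 in all 3 groups, and 68.9% of the active bins of this list were in state 4.

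Markers of cells other than hepatocytes were examined because whole liver was used. Leukocyte markers lost 12.9% of the active bins (88 of 680). These fell to 4 of 14 genes (28.6%, near the 26.5% of all genes), and 54.0% of the list's active bins were in state 4, above the 40.4% over all active bins. Of the state 4 bins of the list 24% were lost. Lost bins were found at Ptprc, the pan-leukocyte antigen CD45, with 49 of 155 bins, and Cd8a, a marker of cytotoxic T cells, with 31 bins (30.7%). Endothelial markers lost 3.29% in 3 of 16 genes, 57 of 64 bins at Mrc1, the mannose receptor of sinusoidal endothelium and macrophages. Stellate cell markers lost 8.70% (20 of 230 bins) in 3 of 7 genes (42.9%), with Acta2 at 13 of 121. Of the active bins of this list 51.7% were in state 4, and 16.0% of those state 4 bins were lost. Cholangiocyte markers lost 0.290% in 1 of 10 genes. Macrophage and Kupffer cell markers (415 bins at 9 genes) and erythroid markers (721 bins at 5 genes) lost none. Of these bins 16.1% and 47.2% were in state 4, and Mrc1 was counted with the endothelial markers only. In fetal liver genes, 8 of 379 bins were lost (2.11%), 6 of them at Cdkn1c. Against these 6 losses, Cdkn1c gained 36 bins. Its start was quiescent in the young liver, but under either diet the older liver carried state 4 there. Over the genes with an active bin, the median share lost was 0% in every list except testis or neuron genes (27.5%), and it was 0% over all genes. The part of cell composition in these values was not tested.

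The 844 lost bins that had been in state 3 formed a small class. Their GC content was 39.0%, 37.4% lay over 50 kb from a TSS and 48.1% were intergenic. Of all lost bins 35.3% were intergenic, and of the bins kept in state 3 in all groups 30.6% were, with 21.7% over 50 kb away and a GC content of 44.3%.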

How the data were processed

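The authors aligned reads to mm10 with bwa (BWA 0.6.2-r126 and SAMtools 0.1.18 per the labels), removed reads of low mapping quality and duplicates, merged the libraries of a group and learned 8 states with ChromHMM. The deposited files give 1 state label per 200 bp bin for SD 3m, SD 12m and CR 12m. They hold no counts or depths, so depth is unknown. Members and lists were chosen with earlier results of these data known.

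Labels were read with Python 3.11.15 (numpy 2.4.6, pandas 2.3.3), and chromosome lengths matched GRCm38.p6. Starts were those of the longest curated RefSeq transcript of 26089 genes. Exons and introns came from 45657 curated transcripts. GC content, soft-masked repeats and 12 motifs were read per bin, without bins holding N. Genes named were those at the 10 longest stretches, the 15 with most lost bins, the 10 with the highest share among genes with at least 50 active enhancer bins, up to 3 per list (20 lists, 393 genes) and Alb and Apoa1. A gene that this rule names is not reported here. No test was run, as each group is 1 segmentation. The code that makes the calls was run on simulated state labels with planted losses. This checks the code only, since the simulated labels held no read noise or depth. Alternatives included the X chromosome, parent edges, stretch length, other states and other starts.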

Additional observations from a re-analysis of the deposited data

How the results depend on the processing

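With chromosome X included, or with state 7 also counted as lost, no value moved beyond its counting interval. Leaving out bins within 1 kb of a parent edge gave a lost share of 2.99%, 99.8% from state 4, 20.6% in parents lost entirely, a mean length of 2096 bp and 39.8% GC. With stretches of at least 1 kb only these were 3.66%, 99.4%, 34.8%, 2703 bp and 39.6%. With state 3 alone in SD 3m, the lost share was 0.0692%, 60.2% of it in parents lost entirely, with a mean length of 448 bp, 37.4% over 50 kb from a TSS and 39.0% GC. With state 5 added in SD 3m they were 5.74%, 53.3% from state 4, 32.8%, 1857 bp, 39.1% and 41.3%. With all curated transcript starts, 36.0% of the lost bins lay over 50 kb from a TSS. Restricted to bins within 50 kb of a TSS, 3740 genes were nearest to a lost bin. Wilson intervals treat bins as independent, which adjacent bins are not. No paired analysis was possible because each group is 1 segmentation of merged libraries. The lack of a segmentation per mouse limits every value: neither the spread between mice nor the effect of depth could be measured.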
